A study of Mus musculus with 9 samples.

Results

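The genes described here are 10 targets and feedback regulators of Notch signalling: Hes1, Hes5, Hes6, Hey1, Hey2, Heyl, Nrarp, Dtx1, Dtx4 and Sox9. They were chosen by name, with earlier results of these data known. Each probe set (the group of probes that reads 1 transcript) whose platform annotation gave 1 of these symbols alone was taken. This gave 19 probe sets of 45101 on the array, and all 10 genes were among the 18193 genes measured. The main probe set of a gene was the one with the highest mean over all 9 arrays. All levels are log2 values made with RMA, a method that corrects background, normalises arrays to each other and combines the probes of a probe set. The samples were 5 hepatocellular carcinomas of TKO (triple knockout) mice and 4 normal livers. The genotype listed for the tumours is RbΔ/Δ, p130Δ/Δ and p107+/-, so 1 copy of p107 was intact despite the name. The tumours were dissected 4 months after Ad-Cre, an adenovirus that delivers Cre recombinase, had been injected into the spleen. Which promoter drove Cre is not stated in the labels. The 4 livers came from adult wild type mice without tumours, and no virus is listed for them, so genotype, virus and tumour state cannot be told apart. Whether each sample is a different animal is not stated in the labels, and the spread that p-values rest on may therefore be technical.

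Notch receptors are cut after binding a ligand on a neighbouring cell, and the freed intracellular part enters the nucleus and binds the DNA-binding protein RBPJ. The classical targets are repressors of the HES and HEY families, basic helix-loop-helix proteins that hold back differentiation genes. Some targets act back on the pathway, among them NRARP, which destabilises the Notch intracellular part, and the Deltex E3 ubiquitin ligases, which bind it. In liver, Notch signalling is known for directing progenitor cells to the bile duct fate, and SOX9 is a transcription factor of bile duct cells. The comparison asks which of these genes differed between the tumours and normal liver, and how they varied from tumour to tumour.

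Array medians over all probe sets ran from 6.22 to 6.27, and precision is limited by how few arrays there are. TrpnX, a bacterial control with no target in mouse RNA, read 3.69 to 4.36 and is used here as the level of background. RNA length was read from the Actb control as its 3' minus its 5' probe set on the log2 scale. Livers gave 0.96 ± 0.04 (SD, n = 4) and tumours 0.61 ± 0.08 (SD, n = 5), with p = 0.00794 in a two-sided exact permutation test, which no split of these arrays can go below. The Gapdh control, read the same way, went in the other direction. Livers gave -0.28 ± 0.05 (SD, n = 4) and tumours -0.21 ± 0.03 (SD, n = 5), with p = 0.0635 in the same exact permutation test. The controls therefore give no common direction for RNA length. The Actb measure moved with the groups beside every gene below, and its part in the results was not tested. Tumours 1 and 2 and liver 4 had low Xist, at 6.34, 6.39 and 6.66 against 12.68 to 13.55 elsewhere, so both groups held such arrays. In tissue, fewer cells of a type and less RNA per cell cannot be told apart.

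Sequence around the transcription start was matched by symbol for 5 of the 10 genes (Hes5, Hes6, Hey2, Nrarp and Dtx1), as 6 RefSeq windows of 250 bases before to 50 after a start (build GRCm38.p6). The windows were searched on both strands for the RBPJ core GTGGGAA, and for the E-box CACGTG, the class C site CACGCG and the N-box CACNAG, letters that HES and HEY proteins are known to bind. Matches of these motifs in the 6 windows did not overlap each other. A match describes the letters and is not a measured binding site. Nrarp is shown because it had the largest difference of the 10 genes, and Hes5 and Hey2 because their windows hold the RBPJ core. The first sequence is the 250 bases before the Nrarp start on the plus strand (chr2:25180508-25180757), where capitals mark an E-box and, on the other strand, a pair of N-boxes. The next are 2 stretches of Hes5 on the plus strand (chr4:154960687-154960713 and chr4:154960830-154960856), each 1 match with 10 bases on either side. The last is the 250 bases before the Hey2 start on the minus strand (chr10:30842784-30843033). In Hes5 and Hey2 capitals mark the RBPJ core, as GTGGGAA or, where it lies on the other strand, as its reverse complement.
Nrarp: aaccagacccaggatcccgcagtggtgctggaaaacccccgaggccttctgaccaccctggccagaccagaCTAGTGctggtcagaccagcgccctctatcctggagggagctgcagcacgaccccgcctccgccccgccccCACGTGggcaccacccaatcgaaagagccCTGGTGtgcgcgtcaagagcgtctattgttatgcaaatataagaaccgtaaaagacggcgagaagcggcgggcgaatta
Hes5 distal: ggcgagcgcgTTCCCACagcccggaca
Hes5 proximal: gccgccgagtGTGGGAAcggccgcggc
Hey2: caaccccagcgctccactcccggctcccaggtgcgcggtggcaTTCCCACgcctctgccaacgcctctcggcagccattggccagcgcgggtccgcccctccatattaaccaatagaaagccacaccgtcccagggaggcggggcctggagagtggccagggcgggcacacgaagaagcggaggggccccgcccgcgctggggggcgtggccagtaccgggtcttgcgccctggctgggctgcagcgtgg

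The Hes5 matches began 226 and 83 bases before the start. Hey2 held a match that began 207 bases before the start and another that began 4 bases before it and ran past the printed end. A GTGGGAA was found in 6.38% of the 32851 windows of the RefSeq table, and 0.256% held at least 2. The E-box of Nrarp, a sequence found in 7.15% of windows, began 108 bases before the start. The class C site, found in 9.27% of windows, occurred once in Dtx1, and the N-box, found in 42.5%, occurred in windows of Hes6, Nrarp and Dtx1.

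Hes1, a repressor and the classical Notch target in many tissues, rose in the tumours. It read 9.47, 10.21, 10.34, 8.84 and 9.98 on the log2 scale in tumours 1 to 5 and 8.55, 8.80, 8.24 and 8.53 in livers 1 to 4. Every tumour lay above every liver, but tumour 4 did so by a narrow margin over liver 2. The mean difference was 1.24 (SE 0.29, 2.36-fold, limma adjusted p = 0.0112), from 8.53 ± 0.23 (SD, n = 4) to 9.77 ± 0.62 (SD, n = 5). The array holds 1 probe set annotated to this gene alone. The call held with each array left out in turn and was lost without the 3 arrays of low Xist (1.19, adjusted p = 0.0648).

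The other HES genes did not pass in the upward direction. Hes5, best known from neural progenitors, read 5.72, 5.69, 5.74, 5.97 and 5.84 in tumours and 5.99, 5.79, 6.19 and 5.94 in livers. The groups overlapped, and the difference was -0.18 (95% interval -0.41 to 0.04, limma adjusted p = 0.183). With arrays centred on housekeeping genes it was 0.011, and with arrays centred on their 75th percentile Hes5 passed at -0.36. Of the 10 housekeeping genes themselves, 5 rose and 1 fell by limma. The second Hes5 probe set read 4.11 to 4.22 in tumours and 3.97 to 4.14 in livers, in the range of background.

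Hes6, an atypical member known to oppose HES1, varied most within the groups. It read 9.89, 10.97, 8.95, 8.89 and 9.23 in tumours and 9.72, 9.70, 10.73 and 11.49 in livers. Tumour 2 and livers 3 and 4 were high and the groups overlapped, with a difference of -0.82 (95% interval -1.97 to 0.33, limma adjusted p = 0.234). Its second probe set gave the same order of tumours, from 10.13 in tumour 2 to 7.97 in tumour 4, and a difference of -0.73. The main probe set ends in x_at, the platform's mark for probes that can also read similar sequences. Without the 3 arrays of low Xist, Hes6 passed at -1.02 (adjusted p = 0.042).

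The HEY genes are known as Notch targets of vessels and heart, and none of the 3 passed in the upward direction. Hey1 read 6.66, 6.60, 7.19, 6.41 and 7.15 in tumours and 6.50, 6.45, 6.50 and 6.60 in livers. Tumours 1, 3 and 5 stood above all livers, tumour 2 was level with liver 4, and tumour 4 lay below them all. The difference was 0.29 (95% interval -0.09 to 0.66, limma adjusted p = 0.203), with an SD of 0.35 among tumours and 0.06 among livers.

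Heyl, known also from vascular smooth muscle, read 6.33 to 6.61 in tumours and 6.44 to 6.67 in livers, a difference of -0.08 (95% interval -0.27 to 0.11). With arrays centred on housekeeping genes this was 0.11, and with arrays centred on their 75th percentile Heyl passed at -0.26. Its other probe sets differed by 0.11 and -0.03. All 3 probe sets of Heyl gave overlapping groups.

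Hey2 was the single gene of the 10 that fell, by 0.31 (SE 0.09, limma adjusted p = 0.0337) on the log2 scale. It read 3.67, 3.87, 3.70, 3.76 and 3.78 in tumours and 4.15, 3.92, 4.27 and 3.91 in livers, all at or below the highest value of the TrpnX control. Every tumour lay below every liver, the nearest being tumour 2 and liver 4, but at this level a transcript is not distinguished from background. The call was lost with arrays centred on housekeeping genes (-0.11) and without the 3 arrays of low Xist (-0.37). It was also lost without tumour 1 (-0.29), tumour 3 (-0.29), tumour 4 (-0.31), tumour 5 (-0.31), liver 1 (-0.28) or liver 3 (-0.24).

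**Figure D1:**
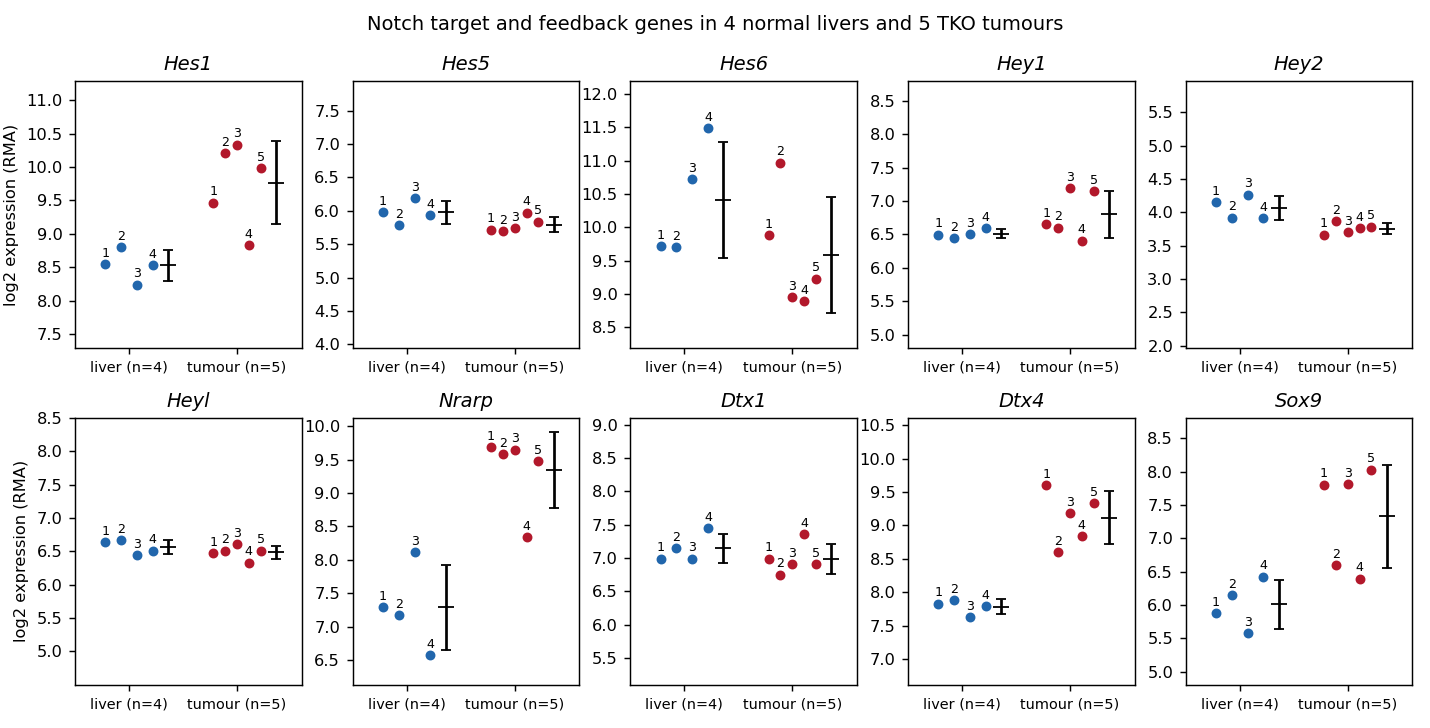
Log2 expression of the main probe set of each of the 10 genes in 4 normal livers (blue) and 5 TKO tumours (red); small numbers are the replicates of the titles, the black mark and bar are the group mean and SD, and the vertical axes start at different levels. For Hes1, Nrarp and Dtx4 all red points lie above all blue points, and for Sox9 tumour 4 (6.40) lies just below liver 4 (6.43).

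Nrarp, the feedback inhibitor, had the largest difference of the 10 genes. It read 9.69, 9.58, 9.65, 8.34 and 9.48 in tumours and 7.29, 7.17, 8.12 and 6.57 in livers. All tumours lay above all livers, with tumour 4 the lowest tumour by a wide gap and liver 3 the highest liver. The difference was 2.06 (SE 0.36, 4.17-fold, limma adjusted p = 0.00242), from 7.29 ± 0.64 (SD, n = 4) to 9.35 ± 0.57 (SD, n = 5). The other Nrarp probe set also passed, at 1.08 (SE 0.20, limma p adjusted over all probe sets = 0.00356). On that probe set tumour 4 was again the lowest tumour, at 7.99 against 8.38 to 8.83, and liver 1 at 7.85 was the highest liver. The Nrarp call held in all 17 alternatives run, with differences of 1.57 to 2.34.

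Of the 2 Deltex ligase genes, Dtx4 rose. It read 9.60, 8.60, 9.18, 8.84 and 9.34 in tumours and 7.83, 7.88, 7.62 and 7.79 in livers. The lowest tumour was well above the highest liver, and the difference was 1.33 (SE 0.19, 2.52-fold, limma adjusted p = 0.000887). This call also held in all 17 alternatives, with differences of 0.93 to 1.52. The second Dtx4 probe set read 8.26, 7.34, 8.02, 7.66 and 8.23 in tumours and 7.30 to 7.41 in livers, a difference of 0.53 (95% interval 0.12 to 0.94) that did not pass over all probe sets (limma adjusted p = 0.0568). Tumour 2 was the lowest tumour on both Dtx4 probe sets and lay among the livers on the second.

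Dtx1, the other Deltex gene, passed on neither of its 2 probe sets, and they differed in direction. The main one read 6.99, 6.75, 6.91, 7.36 and 6.90 in tumours against 6.99, 7.15, 6.99 and 7.45 in livers, a difference of -0.16 (95% interval -0.48 to 0.16, limma adjusted p = 0.395). The second read 5.49, 4.92, 6.19, 7.45 and 5.72 in tumours and 4.99 to 5.30 in livers, a difference of 0.82 (95% interval -0.13 to 1.78). Tumour 4 was the highest tumour on both, and the mean of both probe sets differed by 0.33 without passing. With arrays centred on housekeeping genes the main difference was 0.032, and without the 3 arrays of low Xist it was 0.014.

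Sox9, which marks bile duct cells and hepatocytes turning toward that fate, rose on its main probe set and varied widely among the tumours. It read 7.80, 6.60, 7.81, 6.40 and 8.03 in tumours and 5.88, 6.15, 5.58 and 6.43 in livers. Tumours 1, 3 and 5 were high, tumours 2 and 4 were close to liver 4, and the groups overlapped. The difference was 1.32 (SE 0.37, 2.50-fold, limma adjusted p = 0.0235). The second Sox9 probe set was nearly as bright (mean over 9 arrays 6.73 against 6.74), gave the tumours the same order apart from tumours 1 and 3, and differed by 0.86 (95% interval -0.06 to 1.78) without passing over all probe sets (limma adjusted p = 0.141). The third, at 3.95 to 4.84 in tumours, differed by 0.06. The call was lost with the mean of the 3 probe sets (0.75) and without tumour 1 (1.20), tumour 3 (1.20), tumour 5 (1.15), liver 1 (1.28) or liver 3 (1.18).

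**Figure D2:**
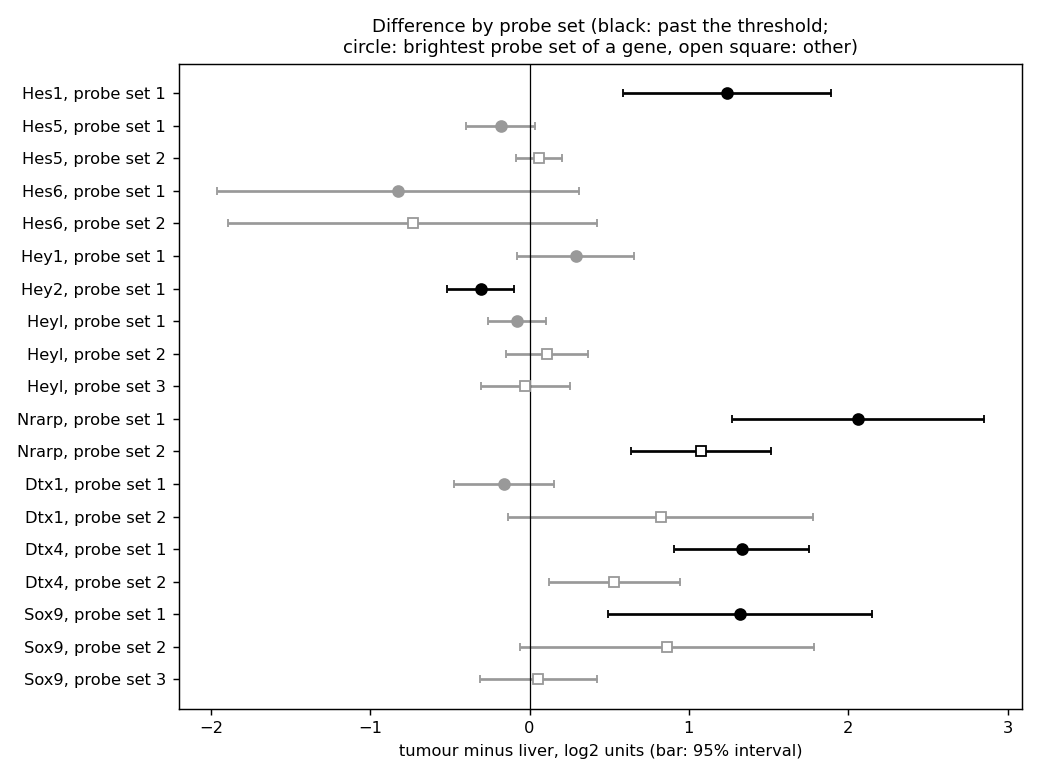
Tumour minus liver difference of all 19 probe sets on the log2 scale with 95% intervals from the limma fit over all probe sets, in order of brightness within a gene; black marks passed an adjusted p of 0.05, circles are the main probe sets and open squares the others. Both Nrarp probe sets passed, at 2.06 and 1.08, while Dtx4 and Sox9 passed on the main one alone.

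Of the 10 genes, 4 rose (Hes1, Nrarp, Dtx4 and Sox9) and 1 fell (Hey2). Among all 18193 genes, 16.1% rose and 17.4% fell by the same test, 33.5% in all. The median difference of the 10 genes was 0.10, against -0.08 over all genes. For 3 of the 10 genes every tumour lay above every liver, beside 14.0% of all genes, and for Hey2 every tumour lay below, beside 15.9%. By probe set, 5 of 19 rose and 1 fell, beside 13.5% and 14.5% of the 45037 probe sets tested (27.9% in either direction). Because the 10 genes were chosen with earlier results of these data known, these counts are a description and no measure of excess.

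The 4 genes that rose differed among the tumours. The SD over the 5 tumours was 0.62 for Hes1, 0.57 for Nrarp, 0.40 for Dtx4 and 0.77 for Sox9. This placed them at the percentiles 91.2, 89.5, 80.5 and 94.2 of all genes, dim genes included. Genes of like brightness were not compared. Tumour 4 was the lowest of the 5 for Hes1, Nrarp and Sox9, with deviations from the tumour mean of -0.93, -1.00 and -0.93, and the second lowest for Dtx4. It was also the lowest for Hey1, Heyl and Hes6, which makes 6 of the 10 genes, beside 21.7% of all genes and 29.7% of the genes that rose. For Heyl this held on the main probe set alone, and tumour 1 was the lowest on its other probe sets. For Hes6 tumour 4 was close to tumour 3 (8.89 and 8.95). Dtx1 and Hes5 were highest in tumour 4. Among the 4 genes that rose, tumour 2 was below the mean for Dtx4 and Sox9, and tumour 1 for Hes1.

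With 5 tumours no correlation between genes was computed, and the order of the tumours is given as a description. Among the 4 genes that rose, 38 of 60 comparisons (each pair of genes over each pair of tumours) had both tumours in the same order, or 63.3%. Over all pairs of the 18193 genes this share was 50.1%, and over all pairs of the 10 genes it was 50.9%. Genes that rose had an uneven order in general: tumour 2 was the lowest for 41.1% of them and tumour 5 for 5.67%. The share over pairs of all genes that rose was not computed, so 50.1% is not a like background for the 4 genes. Without tumour 4 the share among the 4 genes was 47.2%, and without any other single tumour it was 61.1% to 72.2%. With the mean of all probe sets of a gene it was 56.7%. Whether these genes share an order was not tested. Hes1 and Dtx4 were the least alike, with 4 of 10 tumour pairs in the same order, and Nrarp and Sox9 had 6. Each of the other pairs among the 4 genes had 7. With arrays centred on housekeeping genes the share was 56.7%, beside 74.8% over all gene pairs under that centring, whose level ran from 12.17 in tumour 4 to 13.00 in tumour 3.

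**Figure D3:**
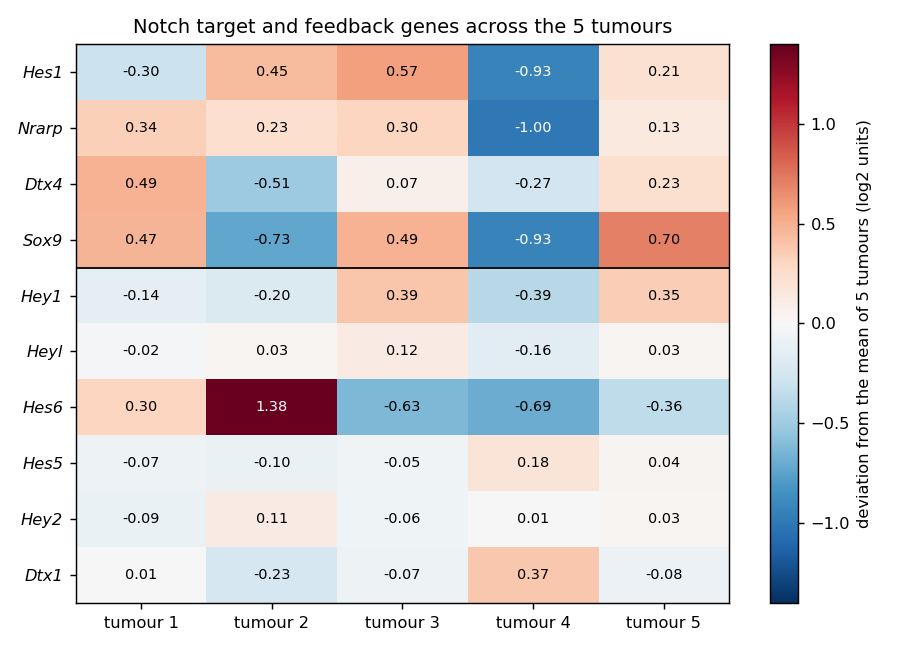
Deviation of each tumour from the mean of the 5 tumours, in log2 units, for the main probe set of each gene; the 4 genes above the line rose against liver. Tumour 4 is the lowest for Hes1 (-0.93), Nrarp (-1.00) and Sox9 (-0.93), and Hes6 is highest in tumour 2 (1.38).

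The other genes of the pathway were taken from 8 lists, also chosen with earlier results of these data known. Of their 77 measured genes, 17 rose and 5 fell, with a median difference of 0.06. Over all genes 16.1% were higher and 17.4% lower, with a median of -0.08. Of 10 receptors and ligands, 3 rose and none fell by limma (0 lower at an unadjusted p under 0.05). The receptor gene Notch1 rose by 1.65 (SE 0.20), at 9.81 to 10.81 in tumours and 8.42 to 8.82 in livers, with tumour 4 the lowest tumour. Its other probe set differed by 1.32. Dll1, a ligand gene, rose by 0.63, and Notch4, an endothelial receptor gene, by 1.00, and both calls were lost without the 3 arrays of low Xist (0.54 and 0.97). That of Notch4 was also lost without liver 1 (0.96), liver 2 (0.99) or liver 4 (0.96) and with the mean of its probe sets (0.21). Rbpj, the DNA-binding partner, is named after its values were seen: it differed by -0.29 (SE 0.12, limma adjusted p = 0.0973).

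Among 10 genes of the nuclear complex 5 rose and none fell by limma (2 lower at an unadjusted p under 0.05). The histone deacetylase gene Hdac2 rose by 1.15, the histone demethylase gene Kdm5a by 0.56 and the acetyltransferase gene Ep300 by 0.59. The other 2 that rose, Snw1 and Hdac1, lost their calls in 11 and 8 of 17 alternatives. The Ep300 call was lost with arrays centred on their 75th percentile (0.41) and without tumour 3 (0.52), tumour 5 (0.52), liver 1 (0.59), liver 3 (0.54) or liver 4 (0.58). Of 8 genes of receptor processing, 2 rose and none fell by limma (0 lower at an unadjusted p under 0.05), Ncstn of the gamma-secretase complex by 0.49 and the convertase gene Furin by 0.55. The Ncstn call was lost with arrays centred on housekeeping genes (0.68). The Furin call was lost in 11 of 17 alternatives, among them the removal of tumour 1 (0.56), tumour 2 (0.48), tumour 4 (0.49), tumour 5 (0.55), liver 1 (0.59), liver 2 (0.48) or liver 3 (0.47). Of 5 glycosylation genes 0 passed by limma, and 0 had an unadjusted p under 0.05.

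Of 12 genes of turnover and trafficking, 2 rose and 2 fell. Neurl1b, known as an E3 ligase gene of Notch ligand uptake, read 10.27, 9.58, 9.37, 10.08 and 10.15 in tumours and 4.88, 5.15, 5.44 and 5.28 in livers. No tumour came near a liver, and the difference was 4.70 (SE 0.20, limma adjusted p = 4.82e-07), on the single probe set of this gene. Fbxw7, which marks the Notch intracellular part for degradation, rose by 0.55. The ligase gene Itch fell by 1.20 on its main probe set, while 3 others differed by 0.011, -0.20 and -0.0028, and the mean of all 4 by -0.35 without passing. Mib1, a ligase gene of ligand uptake named after its values were seen, fell by 0.46, a call lost with arrays centred on housekeeping genes (-0.27) and without tumour 1 (-0.46), tumour 5 (-0.45), liver 1 (-0.49), liver 2 (-0.39) or liver 3 (-0.47).

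Relatives of the HES and HEY genes and their Groucho co-repressors gave 1 increase and 1 decrease among 10, Tle3 by 0.92 and Bhlhe41 by -0.29. The Bhlhe41 call was lost with arrays centred on housekeeping genes (-0.10), without the 3 arrays of low Xist (-0.30), and without tumour 1 (-0.27), tumour 3 (-0.27), liver 1 (-0.25), liver 2 (-0.29) or liver 3 (-0.29). Of 13 other genes reported as Notch targets in some tissue, 4 rose and 1 fell. Cdkn1a, the gene of the p21 inhibitor of cyclin-dependent kinases, rose by 4.88 (SE 0.44) and Ephb4, a receptor gene of veins, by 0.68, whereas the G1 cyclin gene Ccnd1 fell by 2.56. Several of these genes are known as targets of other pathways as well. Of 9 relatives of Sox9, Sox6 fell by 0.90 and 0 rose by limma, with 2 higher at an unadjusted p under 0.05.

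**Figure D4:**
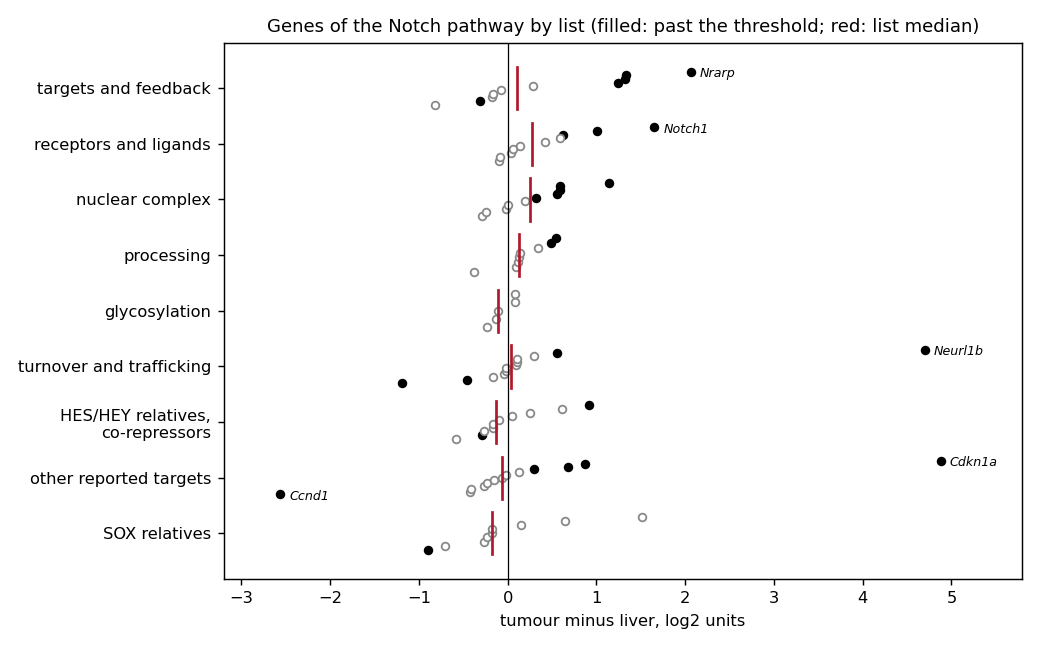
Tumour minus liver difference on the log2 scale for each gene of the 10 targets and feedback genes and of the 8 other pathway lists; filled points passed a limma adjusted p of 0.05, open points did not, and red lines are list medians. Neurl1b (4.70) and Cdkn1a (4.88) lie far to the right and Ccnd1 (-2.56) far to the left.

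Markers of cell types that can express these genes were read beside them, and their part in the results was not tested. Of 7 measured bile duct and progenitor markers 1 fell and 0 rose by limma (0 higher at an unadjusted p under 0.05), while Sox9 rose. Krt19 read 6.20 to 6.50 in tumours and 6.12 to 6.99 in livers, Epcam 7.45 to 7.62 and 7.24 to 7.50, and Cftr 3.90 to 4.24 and 3.98 to 4.14, which is background. The summed level of this list, the log2 of its summed linear values, ran from 8.76 to 10.97 in tumours against 8.92 to 9.93 in livers. Prom1, the brightest of these markers in tumours 1, 3, 4 and 5, read 10.31, 4.92, 10.59, 9.39 and 9.27 in tumours. It was lowest in tumour 2, where Sox9 was also low, but not in tumour 4. Krt7, a keratin gene of bile ducts, was the marker that fell, by 0.29, a call lost in 11 of 17 alternatives, among them the removal of any single array except liver 1 (-0.31 to -0.21).

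Of 10 endothelial markers 4 fell and 0 rose by limma (0 higher at an unadjusted p under 0.05). Those that fell were Kdr (-1.15), Tek (-1.48), Stab2 (-1.60) and Clec4g (-4.08). Pecam1 (0.40), Tie1 (0.17), Cdh5 (-0.10), Eng (-0.29), Lyve1 (-0.37) and Vwf (-0.95) did not pass. Summed levels were 10.64 to 11.61 in tumours and 12.61 to 12.93 in livers. Clec4g was the brightest in livers (11.76, against 7.68 in tumours) and weighs most in the summed level of livers. For smooth muscle, pericyte and stellate cells 2 of 10 rose and 3 fell, with summed levels of 11.44 to 12.81 and 12.56 to 12.80. The collagen gene Col1a1 rose by 2.14 and was highest in tumour 3 (10.33), which was also the highest tumour for Hes1, Hey1 and Heyl. Tagln also rose (0.57), while Reln (-2.66), Lrat (-1.90) and Rgs5 (-1.19) fell. Among tumours, Tagln and Rgs5 were highest in tumour 3 (9.08 and 11.32), and Reln and Lrat in tumour 5 (9.45 and 8.64). Calls of Tagln, Lrat and Rgs5 were lost in 4, 2 and 10 of 17 alternatives. Of 6 macrophage markers 3 fell and 0 rose by limma (0 higher at an unadjusted p under 0.05). Summed levels were 10.54 to 12.90 in tumours and 12.71 to 13.63 in livers. Clec4f (-3.51), Marco (-2.41) and Csf1r (-1.53) fell, while Cd68 (0.69), Adgre1 (-0.53) and Cd5l (-1.77) did not pass. Csf1r, the brightest of them in livers (12.25), lost its call in 8 of 17 alternatives. Of 8 B and T cell markers 1 fell and 0 rose by limma (0 higher at an unadjusted p under 0.05), with 9.66 to 10.85 and 9.86 to 10.81 summed. The marker that fell, Ms4a1, lost its call in 11 of 17 alternatives, with differences of -1.14 to -0.78 where it did. Of 8 neuroendocrine and neural markers 5 fell and 0 rose by limma (0 higher at an unadjusted p under 0.05), with 8.46 to 8.54 and 8.64 to 8.86 summed. With arrays centred on housekeeping genes all 5 of these calls were lost. Differences were then -0.10 for Insm1, -0.24 for Neurod1, -0.21 for Ncam1, -0.12 for Dcx and -0.15 for Stmn2. Insm1 averaged 4.34 in tumours and 4.64 in livers, and Neurod1 4.33 and 4.77, near the highest TrpnX value (4.36). Means of Ncam1, Dcx and Stmn2 were brighter, at 5.48 to 6.61.

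Of 8 hepatocyte markers 1 fell and 0 rose by limma (0 higher and 2 lower at an unadjusted p under 0.05). Summed levels were 17.41 to 17.67 in tumours and 17.77 to 17.89 in livers. Alb, the albumin gene, read 15.42 to 15.55 in tumours against 15.21 to 15.49 in livers. Alb, Ttr, Apoa1 and Serpina1c lie near the top of the scale (highest value on any array 15.55) and make up most of the summed level, so they show that the markers were bright in both groups and not whether their levels differed. Cyp2e1, a cytochrome gene of mature hepatocytes, fell by 4.59 (SE 0.86). Tat differed by -1.72 with every tumour below every liver, and did not pass (limma adjusted p = 0.0735). Cps1 (-0.64) and Hnf4a (0.20) did not pass either. All 5 measured proliferation markers rose, with a median of 6.02 and summed levels of 14.96 to 15.33 against 11.30 to 11.55. The order of the tumours differed among these markers: tumour 4 was the lowest for Mki67 (10.79), Top2a (12.05) and Pcna (13.61) and the highest for Mcm6 (13.47), and tumour 2 was the lowest for Birc5 (11.41).

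Genes with the most similar profile were sought over all 9 arrays by the root mean square difference of log2 values, each gene centred on its liver mean. Nearest to Hes1 were Ehd4 (0.24), the homologous recombination gene Brca2 (0.25) and the adaptor gene Nck2 (0.25). Nearest to Nrarp were Morc4 (0.33), Kbtbd11 (0.35) and Cdkn2c (0.39), a gene for an inhibitor of G1 kinases. Dtx4 was closest to Brms1l (0.13), Arhgef7 (0.17) and Gtf2f1 (0.17), and Sox9 to C1ql3 (0.29), the semaphorin gene Sema3g (0.31) and Zmat3 (0.31). For Hey2, at the level of background, Dusp27 (0.045), Pou3f1 (0.057) and Lao1 (0.058) were nearest.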

How the data were processed

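RNA of 5 tumours and 4 livers was extracted with Trizol, amplified in 2 rounds with a RiboAmp kit, per the labels' protocols, and read on Affymetrix mouse arrays. The values the authors deposited are on the log2 scale, 1 per probe set, and the submitters' processing notes name RMA, without version or settings. RMA compresses differences of dim probe sets, and amplification can shorten transcripts. Samples were grouped by title. Of 45101 probe sets, 34945 named 1 gene, 932 several, 9160 none and 64 were controls. The brightest probe set with 1 symbol stood for each gene.

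Groups were compared with limma 3.58.1 (lmFit, eBayes, two-sided) in R 4.3.3, with Benjamini-Hochberg adjustment over 18193 genes, and in a second fit over 45037 probe sets, at an adjusted p of 0.05. The script was tested on simulated data. The 10 genes and all lists were chosen with earlier results of these data known. Named genes were the 10 genes, up to 3 per pathway list by smallest adjusted p past the threshold, the 3 nearest in profile to each of the 10 that passed, and single markers. Alternatives were other centrings, the mean of probe sets, a filter on dim genes, an intensity trend, a replicate block, the removal of single arrays or of those with low Xist, and adjustment over probe sets. Promoter windows came from RefSeq, build GRCm38.p6.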

Additional observations from a re-analysis of the deposited data

Results flagged for a closer look

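In 4 of 38 groups of values (each probe set in each group of samples), 1 sample stood far from the others by Dixon's criterion, which chance alone meets in about 5% of groups. Nrarp on its main probe set was lowest in tumour 4, at 8.34 against 9.48 to 9.69 in the other tumours. Heyl on its second probe set was highest in tumour 3, at 6.40 against 6.06 to 6.14. The dim second probe set of Hes5 was lowest in liver 4, at 3.97 against 4.14 in each other liver, and the dimmest probe set of Sox9 was lowest in liver 1, at 4.41 against 4.47 in each other liver.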

How the results depend on the processing

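Nrarp, Dtx4 and Hey1 kept their direction and their side of the threshold in all 17 alternatives run. The replicate number as a block left 2 of the 10 genes higher and 0 lower by limma, and 3 of the 19 probe sets higher and 0 lower. Among all 18193 genes 2021 were then higher and 1531 lower. Hes1 stood at 1.18 (limma adjusted p = 0.0518) and Sox9 at 1.15 (limma adjusted p = 0.124) under the block. Among the pathway genes named above, Fbxw7 (0.50), Kdm5a (0.52), Ep300 (0.52), Furin (0.55), Snw1 (0.32) and Bhlhe41 (-0.32) lost their calls under the block. The labels do not say whether the numbers pair the samples, and tumour 5 has no partner. Deviations of same-numbered samples correlated at -0.118, -0.043, 0.140 and -0.128. The best-correlated tumour was 4, 3, 3 and 1 for livers 1, 2, 3 and 4. With so few samples these values do not settle whether the samples are paired. Centring on housekeeping genes moved the median of all genes from -0.08 to 0.11. It left 0 of the 10 genes, 0 of their probe sets, 3 pathway genes and 796 of all genes lower. Of the 10 housekeeping genes 5 rose and 1 fell by limma in the main fit, so this reference was itself not steady. Under this centring the SE of Hey2 went from 0.09 to 0.23 and that of Hes1 from 0.29 to 0.26. Centring on the 75th percentile moved that median to -0.26 and gave 3, 3, 22 and 8040 lower. The higher share of all calls was 48.0%, 77.6% and 22.3% in these settings. Leaving out dim genes removed Hey2, so 0 genes and 0 probe sets were lower. Directions turned for Hes5 (0.011), Heyl (0.11) and Dtx1 (0.032) with housekeeping centring, for Heyl (0.0013) and Dtx1 (0.33) with the mean of probe sets, and for Dtx1 (0.014) without the low-Xist arrays; the cause was not tested.

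With single arrays left out, 3 to 4 of the 10 genes were higher and 0 to 1 lower, 4 to 6 probe sets higher and 0 to 1 lower, 12 to 19 pathway genes higher and 3 to 9 lower (9 without tumour 2, and 3 without tumour 1, liver 1 or liver 2), and 2348 to 3251 of all genes higher and 2284 to 3110 lower. The share of comparisons in the same order ran from 47.2% to 72.2%, and was 77.8% without the low-Xist arrays, where 3 tumours remain. The Actb measure differed by -0.39 to -0.34, and by -0.34 without the low-Xist arrays (exact permutation p = 0.1, the smallest possible there). The Gapdh measure differed by 0.066 (exact permutation p = 0.0635), by 0.052 to 0.090 with single arrays left out, and by 0.090 (exact permutation p = 0.0179) without liver 4. Probe sets at the level of the TrpnX control, as of Hey2, limit what can be said of a fall.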
